A study of Mus musculus with 61 samples.

Results

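The genes described here are the 100 genes of mouse oocytes and embryos whose SLAM-seq read counts stood out most in the labelling window of 18-24 h post insemination (18-24hpi). They were chosen by measured values. Each count was divided by its library's total and scaled to a common library size (CPM, a level). Genes averaging 20 CPM or more at 18-24hpi were ranked by a score, log2 of the 18-24hpi mean plus 1 over the highest mean of the other 9 groups plus 1. The 100 highest scores were taken from 5798 genes at that level, of 24551 in all, and 682 of the 5798 had their highest mean at 18-24hpi. Since the window libraries chose the genes, their values there are a description and carry no test.

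In SLAM-seq, cells take up 4-thiouridine (4SU), an analogue of uridine that is built into new RNA, and alkylation later makes the labelled bases read as T-to-C changes. The window libraries came from wild-type embryos made by in vitro fertilisation, which met 4SU at 2 mM during 1 of 9 windows of 6 h, with 10 embryos per library, and from 4SU-labelled wild-type MII oocytes. Each of these 10 groups had 3 libraries. The 11 genotype libraries came from 4SU-labelled embryos at the stage that the design text calls M2C: 3 wild-type controls (ctrl), 3 labelled Klf17 KO, 3 labelled Klf17 maternal KO (mKO) and 2 labelled Klf17 paternal KO (pKO). How the alleles were made, the crosses, and whether libraries of a group came from separate collections are not given in the sources used here. Nor is it stated if the tables count every read or converted reads alone, so a level may include RNA that the oocyte made before labelling. In these bulk libraries fewer cells with a transcript and less of it per cell cannot be told apart. Total counts ran from 7395193 to 13301570 in the window libraries and from 14080264 to 23018252 in the genotype libraries.

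A mouse egg stops transcription as it matures, and the early embryo lives on stored maternal RNA until its own genome is switched on. In the mouse the major wave of this activation falls in the 2-cell embryo, where a set of short-lived transcripts appears, among them the Zscan4 genes, the Usp17-like deubiquitinases, Zfp352 and tandem copies of a gene for the initiation factor eIF1A. Zscan4 proteins are nuclear zinc finger proteins known for their part in telomere maintenance and for marking a 2-cell-like state of embryonic stem cells. Klf17 is a Kruppel-like zinc finger transcription factor, and factors of this family bind C-rich boxes in DNA.

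The 100 genes were divided by what the oocyte held, at 2 CPM in MII oocytes, a division made after the values were seen. The nearest genes on each side were Gm11487 at 1.72 CPM and Ttc30b, a gene of transport in cilia, at 3.33 CPM. In all, 36 genes lay under 2 CPM and are called oocyte-low here, and 64 are called oocyte-held. The 28 highest scores all belonged to oocyte-low genes. All 36 oocyte-low genes were next highest at 24-30hpi, with means at 18-24hpi 1.28- to 4.55-fold above it (median 2.40), and 21 of them stood at least 2-fold above it. The 64 oocyte-held genes stood 1.27- to 1.60-fold above their next highest group (median 1.33). That group was 12-18hpi for 30 of them, 24-30hpi for 19, MII for 7 and 6-12hpi for 5. The last 3 were Idi1, an enzyme of isoprenoid synthesis (0-6hpi), Capza1, an actin capping subunit (70-76hpi), and Rexo2, an oligoribonuclease (90-96hpi). At the limit of the ranking, Tcl1b2 was the last gene taken, with a score of 0.340955 (1647 CPM against 1300.1 CPM), and 6720489N17Rik lay just outside, with 0.339903 (121 CPM against 95.5 CPM). The 3 libraries at 18-24hpi all lay above the 3 of the next highest group for 27 of 36 oocyte-low and 48 of 64 oocyte-held genes. The rule favours such gaps, so these counts, and the gaps of single genes below, describe the choice and test nothing.

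**Figure D1:**
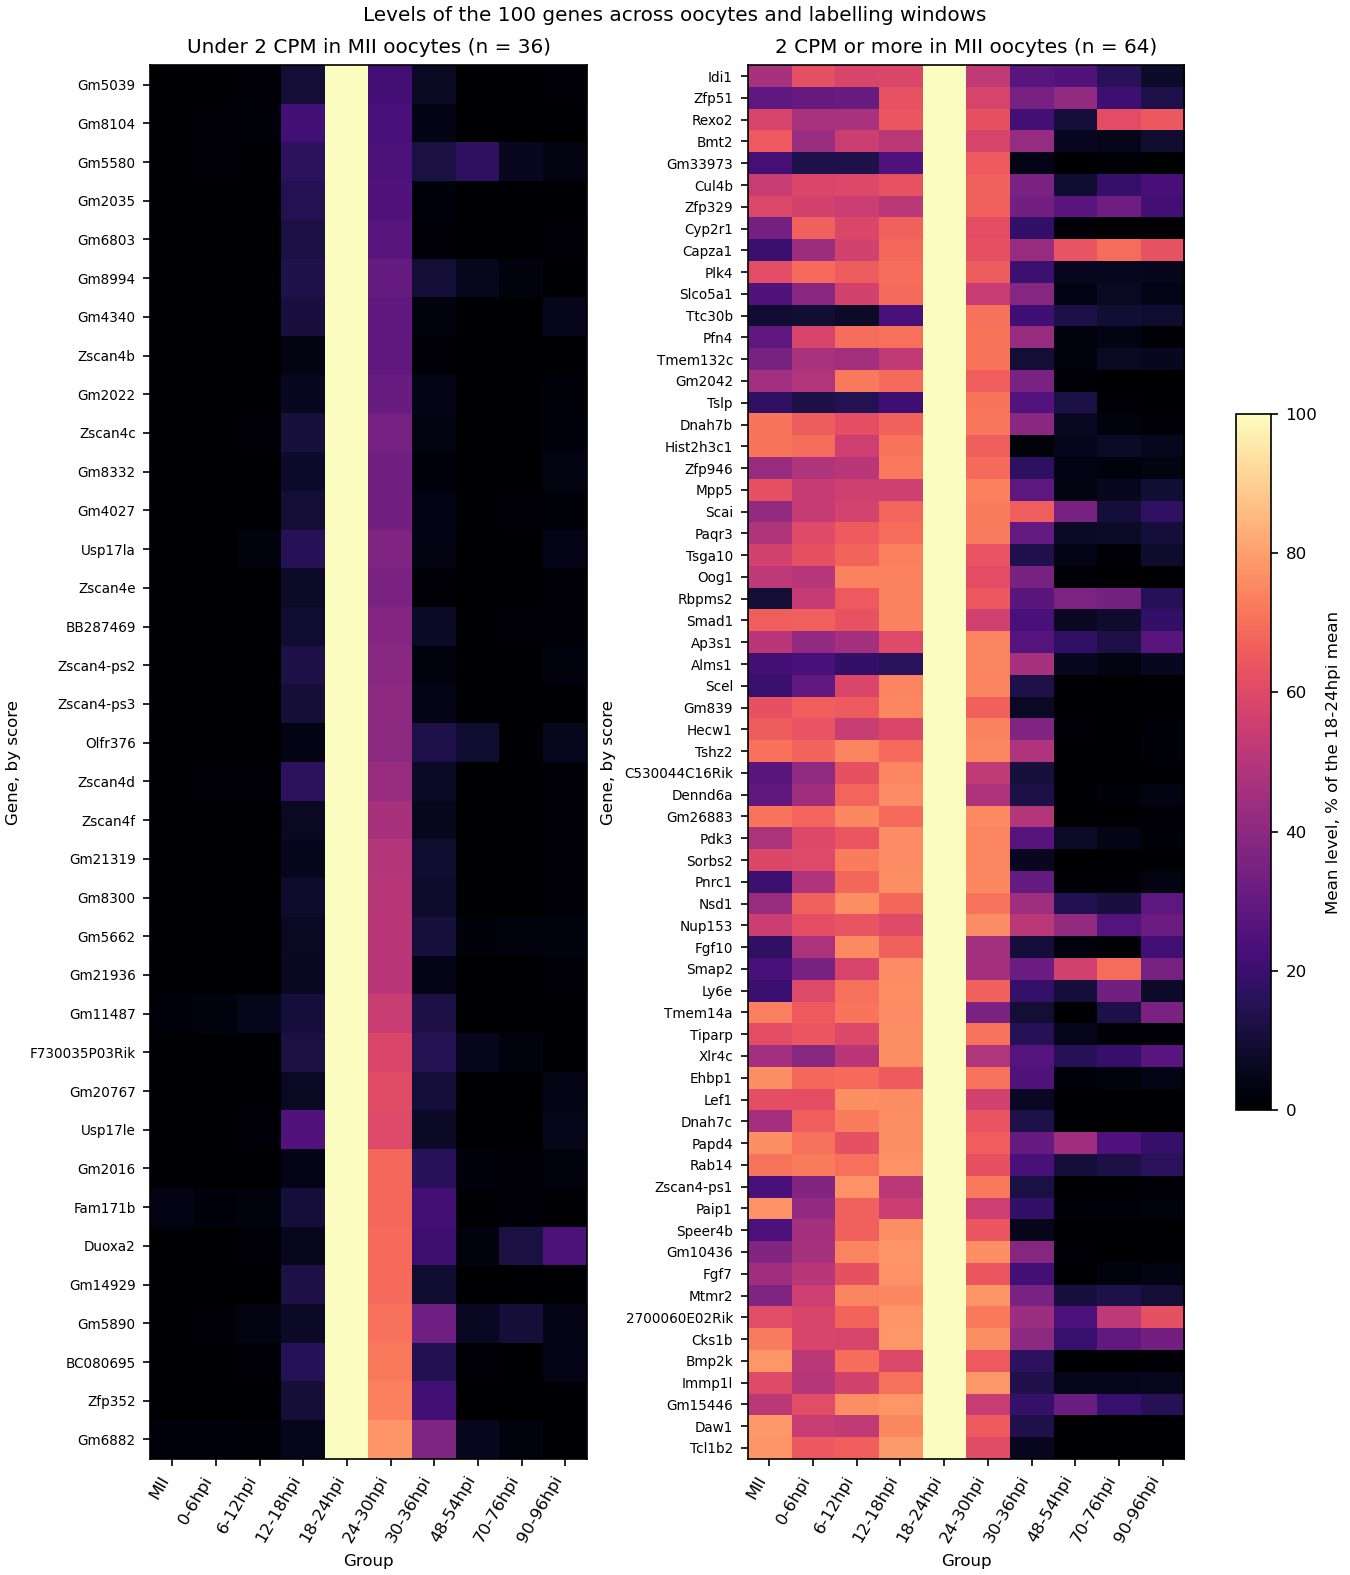
Mean level of each of the 100 genes (rows) in MII oocytes and 9 labelling windows (columns), as a percent of its 18-24hpi mean, for 36 oocyte-low genes and 64 oocyte-held genes in separate panels. The oocyte-low genes have a median of 0.0611% of their peak in MII and 10.3% at 12-18hpi, and the oocyte-held genes 49.6% and 70.2%.

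Summed over the 36 oocyte-low genes, the level was 6.53 ± 3.21 CPM in MII (mean ± SD, n = 3, here and below), 28.5 ± 7.005 CPM at 6-12hpi and 404 ± 111 CPM at 12-18hpi. It was 3911 ± 711 CPM at 18-24hpi, 1967 ± 268 CPM at 24-30hpi, 431 ± 85.3 CPM at 30-36hpi and 36.2 ± 14.5 CPM at 48-54hpi. The oocyte signal of these genes was close to nothing: 13 of 36 had 0 reads in all 3 MII libraries and 10 more had 1 to 3. For a gene at 0, the 3 reads that a count of 0 allows over the group correspond to 0.0875 CPM, counting error only, so each of those 13 was at least 242-fold higher at 18-24hpi. The 18-24hpi libraries did not hold the oocyte-low genes equally. Replicate 3 was the lowest of the 3 for 32 of 36 genes and summed to 3108 CPM, against 4463 and 4161 CPM. At 90-96hpi the sum was 25.4, 131 and 39.9 CPM, so its mean of 65.4 CPM rested on replicate 2. The 64 oocyte-held genes summed to 13717 ± 1108 CPM in MII, 18086 ± 213 CPM at 12-18hpi, 25022 ± 293 CPM at 18-24hpi and 16902 ± 986 CPM at 24-30hpi. They then measured 6046 ± 158 CPM at 30-36hpi and 2187 ± 122 CPM at 48-54hpi, so both sums were far below their peak by then. Single oocyte-held genes still held up to 66.1% of their peak mean at 30-36hpi and up to 63.7% at 48-54hpi. All 100 together took 2.89% of the reads at 18-24hpi and 1.37% in MII.

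Of the 100, 96 matched a RefSeq gene (GRCm38.p6, of the mouse build that the submitters' processing notes name), and tandem arrays hold many of the oocyte-low genes. On chromosome 12, from 87514316 to 88321762, lie 15 of the 100 among 60 RefSeq genes. Of the 17 genes counted there 16 were highest at 18-24hpi, but for the 15 the rule itself fixed this. These 15 are 12 oocyte-low copies related to eIF1A, which helps the ribosome find the start codon (Gm8300, Gm4027, Gm21319, Gm21936, BB287469, Gm2016, Gm2022, Gm2035, Gm6803, Gm8332, Gm5662 and Gm5039), and the oocyte-held Oog1, Gm2042 and Gm10436 (Pramel51 in RefSeq), of the oogenesin and PRAME-like genes of the germ line. On chromosome 7, from 10900740 to 11614112, lie 8 Zscan4 genes and pseudogenes, and from 104767961 to 104862667 Usp17le and Usp17la. The copies are close in sequence, and how reads that fit several copies were counted is not given in the sources used here. The level of any single copy is therefore uncertain, and sums over a family are given beside it.

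Promoter windows of these families and of Zfp352 are shown because these genes were near absent in the oocyte. Each runs from 250 bases before to 50 bases after a start in RefSeq (GRCm38.p6), 5′ to 3′ on the gene's strand. Capitals mark matches, on either strand, to CCNCNCCC (the C-rich box of Kruppel-like and SP factors), to TAATCC, the letters that OTX and OBOX homeodomains prefer, and to the TATA box, TATAAA. Zscan4c lies at chr7:11005495-11005794 (plus strand), Gm4027 at chr12:87618659-87618958 (plus strand), Usp17la at chr7:104856766-104857065 (plus strand) and Zfp352 at chr4:90218570-90218869 (plus strand).
Zscan4c: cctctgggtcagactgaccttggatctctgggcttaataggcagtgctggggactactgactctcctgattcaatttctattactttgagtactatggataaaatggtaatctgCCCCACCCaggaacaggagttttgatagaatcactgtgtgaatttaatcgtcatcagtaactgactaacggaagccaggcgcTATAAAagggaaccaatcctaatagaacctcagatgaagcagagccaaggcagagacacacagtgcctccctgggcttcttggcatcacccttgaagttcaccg
Gm4027: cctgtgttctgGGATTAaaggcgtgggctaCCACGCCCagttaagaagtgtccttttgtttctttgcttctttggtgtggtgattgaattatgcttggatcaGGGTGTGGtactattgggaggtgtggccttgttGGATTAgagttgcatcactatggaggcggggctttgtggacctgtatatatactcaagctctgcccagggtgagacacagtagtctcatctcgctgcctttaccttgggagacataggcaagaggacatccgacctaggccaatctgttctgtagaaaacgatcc
Usp17la: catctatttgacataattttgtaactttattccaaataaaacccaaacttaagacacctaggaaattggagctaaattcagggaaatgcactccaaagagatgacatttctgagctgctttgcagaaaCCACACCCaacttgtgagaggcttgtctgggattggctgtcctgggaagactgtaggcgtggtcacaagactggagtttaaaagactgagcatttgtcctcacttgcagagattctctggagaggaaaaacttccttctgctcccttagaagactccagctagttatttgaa
Zfp352: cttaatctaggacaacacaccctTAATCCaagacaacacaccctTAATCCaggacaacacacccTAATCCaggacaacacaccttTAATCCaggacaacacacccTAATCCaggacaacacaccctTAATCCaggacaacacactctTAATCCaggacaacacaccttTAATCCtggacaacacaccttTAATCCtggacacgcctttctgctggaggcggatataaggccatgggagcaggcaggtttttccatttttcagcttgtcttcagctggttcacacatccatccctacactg
The Zscan4c window holds 1 C-rich box and 1 TATA box, Gm4027 holds 2 C-rich boxes and 2 TAATCC, Usp17la holds 1 C-rich box, and Zfp352 holds TAATCC 9 times in a short repeat. Of the 100 genes, 68 had such a window, 81 windows in all: 17 for 17 oocyte-low genes and 64 for 51 oocyte-held genes. TAATCC was in 41.2% of the oocyte-low windows, 3.13% of the oocyte-held windows and 7.06% of all 32851 windows. TATAAA was in 41.2%, 4.69% and 13.6% of them, and CCNCNCCC in 41.2%, 48.4% and 49.5%. So the C-rich box was about as frequent in either kind as in all windows. Median GC content was 46.3%, 56% and 52.7%, and the median number of CpG sites was 2, 14.5 and 7. Copies of a family share sequence (the Zscan4b and Zscan4f windows are 95.7% identical, those of Oog1 and Gm2042 99.7%), so the windows are not independent, and a match to letters does not show binding.

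The 8 Zscan4 members summed to 19.5 ± 4.76 CPM in MII, 164 ± 56.0 CPM at 12-18hpi, 1077 ± 182 CPM at 18-24hpi, 459 ± 114 CPM at 24-30hpi and 61.5 ± 7.37 CPM at 30-36hpi. The MII signal came almost entirely from the pseudogene Zscan4-ps1 (18.4 CPM), the one oocyte-held member of this family. Zscan4d measured 426, 389.7 and 327 CPM in the 3 libraries at 18-24hpi and 141, 149 and 197 CPM at 24-30hpi. Zscan4c measured 259, 218 and 219.8 CPM and then 66.0, 68.3 and 105 CPM. Both were higher in every library of the earlier window. Zscan4f had 188, 149 and 95.3 CPM at 18-24hpi and 37.7, 68.0 and 95.4 CPM at 24-30hpi, so its libraries overlapped at the edge. Zscan4b had 26.8, 20.7 and 15.95 CPM and then 4.49, 6.52 and 7.35 CPM. Zscan4e, a pseudogene in RefSeq, had 37.3, 25.6 and 24.3 CPM and then 7.68, 9.15 and 14.5 CPM. These lower members, too, were higher in every library of the earlier window. Zscan4-ps2 had 76.9, 58.0 and 48.0 CPM at 18-24hpi and 20.4, 20.2 and 31.2 CPM at 24-30hpi. Zscan4-ps3 had 159.8, 101.4 and 128 CPM and then 38.2, 55.2 and 64.7 CPM. Neither pseudogene overlapped between the windows.

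The 12 eIF1A-like members summed to 0.822 CPM in MII (0.0862 to 2.12 CPM), 111 ± 36.8 CPM at 12-18hpi, 1415 ± 380.0 CPM at 18-24hpi, 628 ± 88.0 CPM at 24-30hpi and 118 ± 15.1 CPM at 30-36hpi. The highest score of all belonged to Gm5039, at 247, 224 and 164 CPM at 18-24hpi and 44.0, 44.3 and 51.4 CPM at 24-30hpi. Gm8300 had 326, 297 and 191 CPM and then 124, 131 and 157 CPM. Both were apart between the windows, like Gm5662 at 398, 359.6 and 234 CPM and then 189.7, 127 and 189 CPM. Usp17la and Usp17le, the deubiquitinase pair, summed to 109 ± 27.3 CPM at 18-24hpi and 46.0 ± 5.74 CPM at 24-30hpi. Usp17la had 102, 90.6 and 63.5 CPM and then 30.6, 29.6 and 34.3 CPM, with no overlap. Usp17le had 29.6, 27.1 and 15.5 CPM and then 19.9, 9.91 and 13.6 CPM, which overlapped. Zfp352, a zinc finger gene of the 2-cell stage, measured 812, 878 and 708 CPM at 18-24hpi and 567, 577 and 621 CPM at 24-30hpi, so it stayed at 73.6% of its peak mean. Olfr376, an olfactory receptor gene, had 25.4, 39.2 and 17.4 CPM and then 12.9, 11.03 and 8.94 CPM, apart again. The eIF4A3-like genes Gm8994 and Gm5580, copies related to a helicase of the exon junction complex, averaged 95.0 and 29.8 CPM at 18-24hpi. The other oocyte-low genes were Gm8104, Gm4340, Gm11487, F730035P03Rik, Gm20767, Fam171b, Duoxa2, Gm14929, Gm5890, BC080695 and Gm6882, with means from 20.8 to 87.0 CPM at 18-24hpi.

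**Figure D2:**
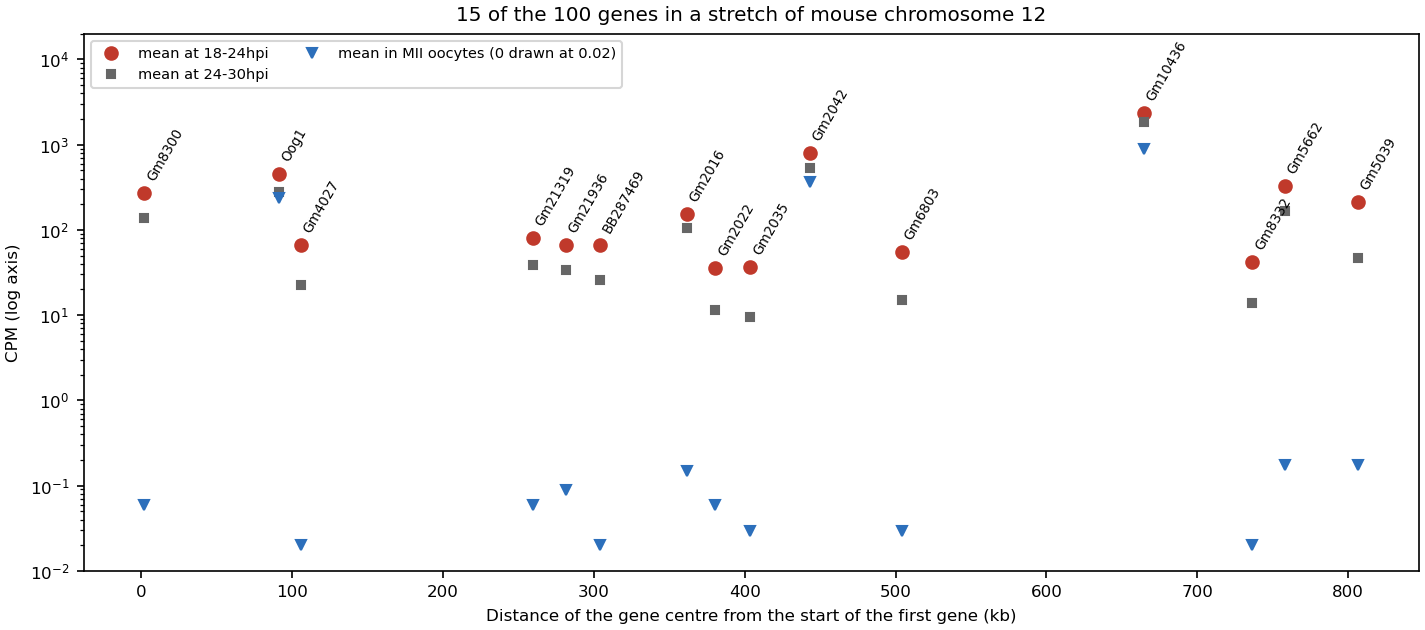
Mean level (CPM, log axis) of the 15 members on the chromosome 12 stretch at 18-24hpi (circles), 24-30hpi (squares) and in MII oocytes (triangles, with 0 drawn just above the lower edge) against distance along the stretch in kb. The 12 eIF1A-like copies lie under 2 CPM in the oocyte and from 35.9 (Gm2022) to 330.4 CPM (Gm5662) at 18-24hpi, while Oog1, Gm2042 and Gm10436 were already at 237, 362 and 893 CPM in the oocyte.

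The oocyte-held genes are a mixed group. Tiparp, a mono-ADP-ribosyltransferase, had the highest count level, with 2483 ± 279 CPM in MII and 3960, 3976 and 4162 CPM at 18-24hpi. Gm10436 measured 893 ± 93.7 CPM in MII and 2447, 2410 and 2278 CPM at 18-24hpi. Tcl1b2, of the Tcl1 family, measured 1284 ± 68.8 CPM in MII and 1644, 1606 and 1691 CPM at 18-24hpi. These 3 genes had the highest 18-24hpi means of the 100, and their means were 618, 918 and 100.9 CPM by 30-36hpi. Per kb of the length that the file gives, the order of levels at 18-24hpi was different: Tcl1b2 was at 1522 CPM per kb, the cyclin-dependent kinase subunit Cks1b at 1389, Gm10436 at 969.5 and Tiparp at 962, and the highest oocyte-low gene was Zfp352 at 351. Idi1 had 99.1, 80.0 and 81.2 CPM at 18-24hpi against a mean of 54.1 CPM at 0-6hpi. The zinc finger gene Zfp51 had 204, 212 and 204 CPM at 18-24hpi and 114, 172 and 104 CPM at 12-18hpi, with no overlap. Other oocyte-held genes differed in where they started. Rbpms2, an RNA-binding protein, averaged 100.7 ± 4.10 CPM in MII, 741 ± 142 CPM at 12-18hpi and 999 ± 110.1 CPM at 18-24hpi. Alms1, a centrosome protein, averaged 28.7 ± 6.85 CPM at 12-18hpi and 179 ± 28.9 CPM at 18-24hpi. Plk4, the kinase that starts centriole duplication, averaged 549 ± 78.3 CPM in MII and 892 ± 23.8 CPM at 18-24hpi. Tshz2 and Gm26883 differed in counts by 0.87%, and whether they share reads is not stated.

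**Figure D3:**
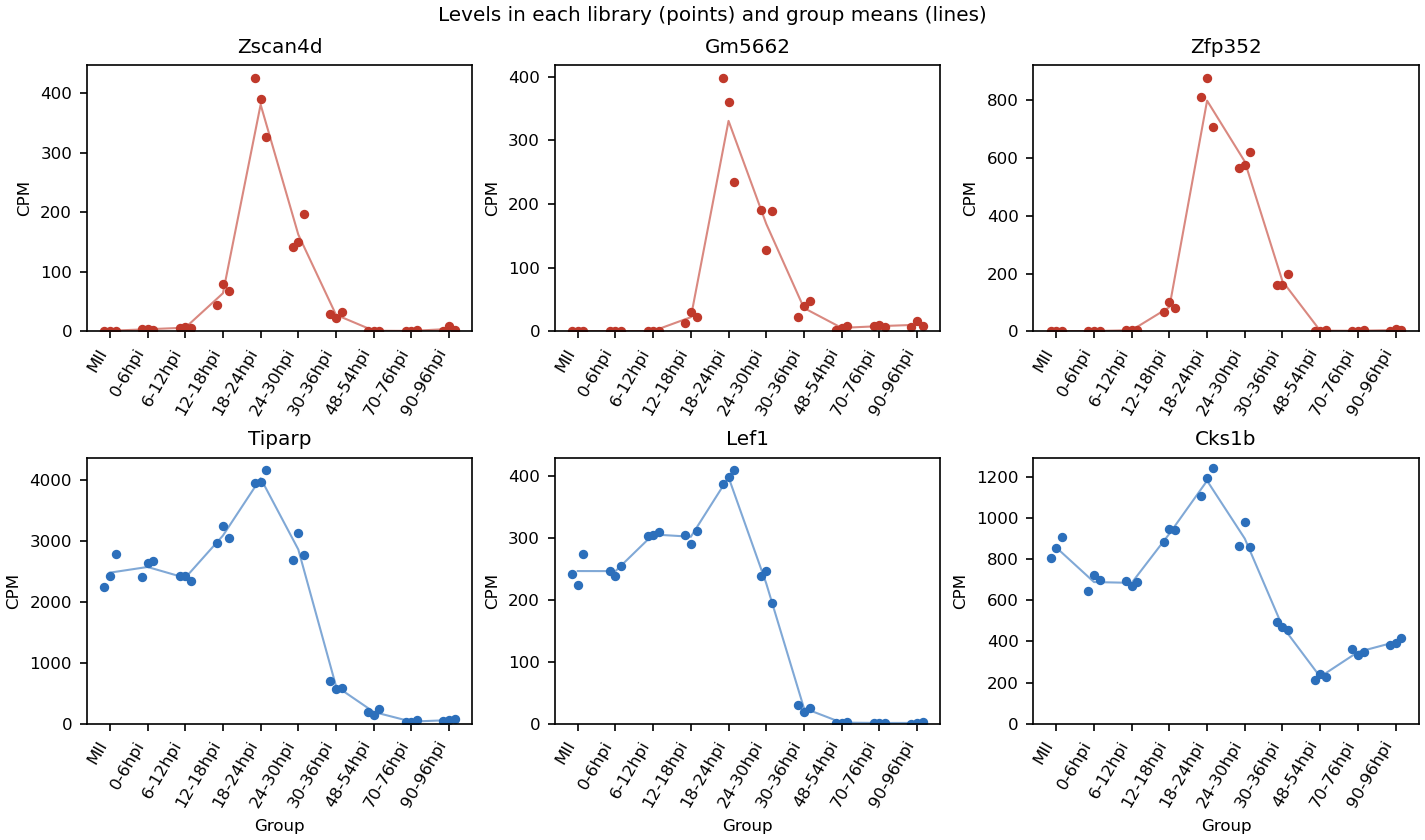
CPM of 6 members in each of the 30 window libraries (points) with group means (lines), in separate panels. Zscan4d, Gm5662 and Zfp352 (oocyte-low) start under 2 CPM in MII oocytes, and Tiparp, Lef1 and Cks1b (oocyte-held) at 2483, 246 and 855 CPM.

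The genotype libraries took no part in the ranking, and there the genes can be tested, though earlier results of these data were known. The question is how their transcripts differ in embryos labelled as lacking Klf17. From here on levels are CPM from library totals scaled by TMM (trimmed mean of M-values). Klf17 itself measured 596, 805 and 746 CPM in the controls and 672, 603 and 728 CPM in the libraries labelled KO (log2 fold change -0.10, SE 0.30, adjusted p = 0.869, edgeR). It was at 359, 845 and 794 CPM in mKO and at 811 and 1014 CPM in pKO. So the counts of Klf17 did not set the libraries labelled KO apart from the controls. Which part of the gene was removed is not given in the sources used here, and reads outside it would check nothing, so the groups are called by their labels and every direction below rests on them. Among the mKO libraries, replicate 1 stood apart: its Klf17 level was the lowest of all 11, it was the highest mKO library for 78 of the 100 genes, and it differed from replicate 2 more than any other pair of replicates did (chi-square per degree of freedom 259, against 20.5 to 138 for pairs of the other groups).

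Mitochondrial transcripts took 5.93% to 11.4% of the counts in the libraries labelled KO, 3.23% to 4.18% in the controls, 4.19% to 5.82% in mKO and 3.73% to 5.63% in pKO. The 10 oocyte markers, none at 0, summed to 3795 to 4318 CPM in the libraries labelled KO and 2116 to 2924 CPM in the controls. Single oocyte markers went both ways: Bmp15 rose (log2 fold change 1.02) and Zp3 fell (-1.29), the calls among these 10. The 8 markers of the 2-cell embryo, 3 of them among the 100, summed to 1193 to 1256 CPM and 786 to 1184 CPM in the same order, which holds for the next lists too. Cumulus cell markers (11 of 12 in the table, Fshr at 0) summed to 23.2 to 47.5 CPM and 66.4 to 85.2 CPM. The 6 inner cell mass markers, none at 0, summed to 124 to 135 CPM and 58.5 to 73.2 CPM, the 6 trophectoderm markers to 65.0 to 125 CPM and 78.8 to 91.2 CPM (Cdx2 at 0 in the controls), and the 9 sperm markers to at most 5.26 CPM and 1.94 CPM. Their part in the results below was not tested, apart from the fits on mitochondrial counts given there. Set beside the windows on column totals, the controls held the 100 genes at a median of 29.6% of their 18-24hpi level, 51.0% of their 24-30hpi level and 180% of their 30-36hpi level. In the controls 99 of 100 were lower than at 18-24hpi, all but Duoxa2, a maturation factor of dual oxidase. The genes were chosen for a high 18-24hpi level, so a lower level in other libraries is partly fixed by the rule. The tables were deposited separately, so these are levels side by side.

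All 100 genes could be tested in the genotype libraries. Between the libraries labelled KO and the controls, 8 of the 100 rose and 1 fell (edgeR quasi-likelihood test, adjusted p below 0.05 over 16694 genes), where 1.82% of all genes rose and 6.31% fell. The 8 were all oocyte-held: Lef1, Pnrc1, Scel, Gm10436, Gm839, Mtmr2, Pdk3 and Ap3s1. The one that fell was the oocyte-low Gm11487. The median log2 fold change of the 100 was 0.72, with 88 above 0, against 0.05 for all genes. It was 0.72 for the oocyte-low and 0.68 for the oocyte-held genes. All 3 libraries labelled KO lay above all 3 controls for 36 of the 100 and below them for 2, while among all genes these shares were 15.5% and 20.7%. At an unadjusted p below 0.05, 33 of the 100 were higher and 2 lower, against 10.1% and 15.7% of all genes. Of the other 582 genes at 20 CPM or more that were highest at 18-24hpi, 48 rose, and their median was 0.58.

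Lef1, a transcription factor of the Wnt pathway, measured 64.3, 34.5 and 41.3 CPM in the controls and 179.9, 223 and 119 CPM in the libraries labelled KO (log2 fold change 1.90, SE 0.37, adjusted p = 0.0108, edgeR). Pnrc1, a coactivator of nuclear receptors, measured 196, 166 and 145 CPM in the controls and 472, 408 and 329 CPM in the libraries labelled KO (log2 fold change 1.25, SE 0.28, adjusted p = 0.0158, edgeR). Gm10436 measured 1955, 1308 and 1458 CPM in the controls and 4014, 4670 and 2739 CPM in the libraries labelled KO (log2 fold change 1.27, SE 0.32, adjusted p = 0.0261, edgeR). The groups were apart for these 3 genes, with KO replicate 3 the lowest of its group in each. Scel, which encodes sciellin of the cornified envelope, measured 54.1, 30.1 and 22.1 CPM and then 147, 140.3 and 53.5 CPM (log2 fold change 1.68, SE 0.42, adjusted p = 0.0245, edgeR). Its KO replicate 3 lay just under the highest control. Gm839, a long non-coding RNA, measured 400.0, 238 and 184 CPM and then 753, 819.9 and 488 CPM (log2 fold change 1.33, SE 0.34, adjusted p = 0.0285, edgeR). Mtmr2, a phosphoinositide phosphatase of membrane traffic, measured 187, 173 and 208 CPM and then 525, 409.9 and 349.6 CPM (log2 fold change 1.18, SE 0.31, adjusted p = 0.0303, edgeR). In Gm839 and Mtmr2 the groups did not overlap. The same held for Pdk3, a pyruvate dehydrogenase kinase, at 98.6, 67.2 and 59.4 CPM and then 200.3, 162 and 124 CPM (log2 fold change 1.11). Ap3s1, a subunit of a vesicle adaptor complex, measured 132, 77.6 and 92.6 CPM and then 257, 289 and 153 CPM, apart as well (log2 fold change 1.21). Gm11487 measured 26.1, 9.82 and 27.0 CPM in the controls and 4.03, 2.92 and 9.32 CPM in the libraries labelled KO, lower in each (log2 fold change -1.95, SE 0.54, adjusted p = 0.0368, edgeR).

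Single libraries weighed on these calls. Each of the 9 was lost when any of 3 to 5 of the 6 libraries was left out. Of the 100, 0 passed without ctrl replicate 3 or without KO replicate 2, and 1 passed without ctrl replicate 2 or without KO replicate 1 (edgeR, 9 in the full fit, 30 by DESeq2). Over all genes, 8 rose and 180 fell without ctrl replicate 3, and 0 passed without KO replicate 2. Without ctrl replicate 2, 32 rose and 238 fell, and without KO replicate 1, 52 rose and 217 fell. In the full fit 304 rose and 1054 fell, and by DESeq2 1066 and 1526. With the mitochondrial share of each library as a term in the model, 0 of the 100 and 0 of 16694 genes passed and the median of the 100 was 0.23, while with mitochondrial genes left out the same 9 passed. Both of these fits were added after the data were seen. The share did not overlap between the libraries labelled KO (5.93% to 11.4%) and the controls (3.23% to 4.18%). The fit with the share as a term therefore cannot tell label and share apart.

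Promoter windows of a pair of the genes that rose and of the one that fell are shown, with the same source and capitals, because KLF17 belongs to the family that binds the C-rich box. They lie at chr3:131110047-131110346 (plus strand) for the first of the Lef1 starts, chr4:33248738-33249037 (minus strand) for Pnrc1 and chr4:73405023-73405322 (minus strand) for Gm11487.
Lef1: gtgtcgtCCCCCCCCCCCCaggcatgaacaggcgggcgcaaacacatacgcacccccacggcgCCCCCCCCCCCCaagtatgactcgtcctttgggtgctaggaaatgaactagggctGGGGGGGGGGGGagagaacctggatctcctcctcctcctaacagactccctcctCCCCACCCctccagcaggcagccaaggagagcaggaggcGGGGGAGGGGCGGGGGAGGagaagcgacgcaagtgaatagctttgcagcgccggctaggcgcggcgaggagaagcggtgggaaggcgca
Pnrc1: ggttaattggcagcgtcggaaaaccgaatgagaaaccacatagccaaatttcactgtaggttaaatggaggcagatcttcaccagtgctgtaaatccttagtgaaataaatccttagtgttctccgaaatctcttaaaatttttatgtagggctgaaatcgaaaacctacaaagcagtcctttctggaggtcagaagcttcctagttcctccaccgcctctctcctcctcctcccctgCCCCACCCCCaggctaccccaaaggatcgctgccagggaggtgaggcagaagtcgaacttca
Gm11487: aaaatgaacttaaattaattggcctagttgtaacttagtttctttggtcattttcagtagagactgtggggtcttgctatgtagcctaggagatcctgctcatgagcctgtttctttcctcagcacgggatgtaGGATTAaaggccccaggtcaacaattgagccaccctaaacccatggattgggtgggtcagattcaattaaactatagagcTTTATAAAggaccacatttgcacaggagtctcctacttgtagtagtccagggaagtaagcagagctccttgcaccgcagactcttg
The Lef1 window holds 20 matches to CCNCNCCC, overlapping ones counted, mostly in runs of C or G, and the Pnrc1 window holds 2. Windows at the other Lef1 starts hold 15, 4 and 0. Not all genes that rose have the box: the Scel, Pdk3 and Gm839 windows hold 0, and those of Mtmr2 hold 3, 0 and 0. Of all windows 49.5% hold it, and whether the box bears on which genes rose or fell was not tested. The Gm11487 window holds 0, with 1 TAATCC and with TATAAA on both strands.

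**Figure D4:**
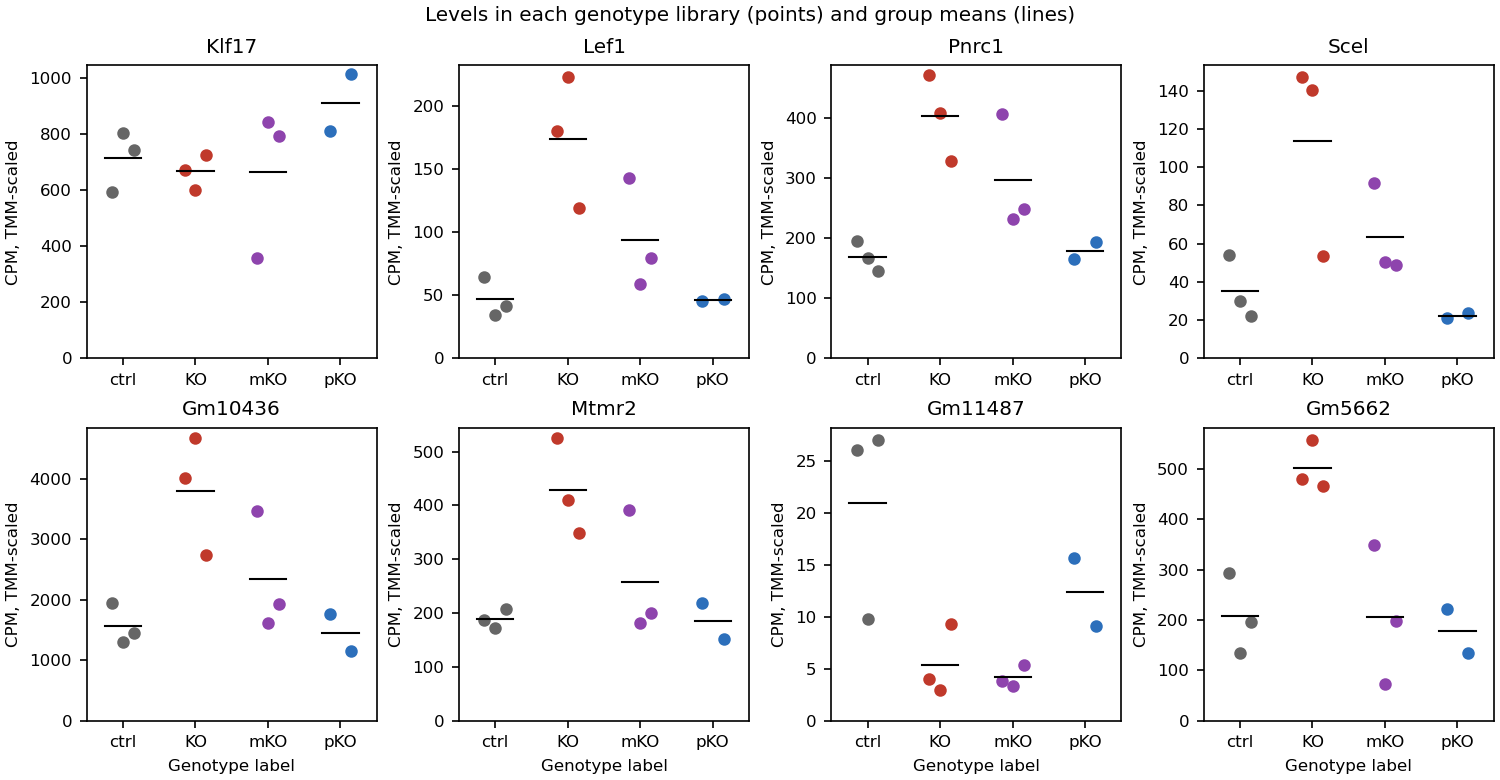
CPM from TMM-scaled totals of Klf17 and 7 members in each of the 11 genotype libraries (points) with group means (lines), in separate panels. Klf17 overlaps between the libraries labelled KO and the controls, Lef1, Pnrc1, Gm10436, Mtmr2 and Gm5662 are higher in every library labelled KO than in any control, Scel overlaps, and Gm11487 is lower.

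Among the 36 oocyte-low genes, 8 were higher in the libraries labelled KO at an unadjusted p below 0.05 without passing the adjusted test, and 2 were lower, Gm11487, which passed, and Gm5580, which did not (all genes: 10.1% higher and 15.7% lower). The 12 eIF1A-like members summed to 413 ± 152 CPM in the controls and 953 ± 99.7 CPM in the libraries labelled KO (268 to 572 CPM and 860.1 to 1058 CPM). Of the 12, 11 had a log2 fold change above 0, and for 8 the libraries labelled KO lay wholly above the controls (15.5% of all genes). The copies may share reads, so the 12 are not separate observations. Gm5662 measured 293, 135 and 197 CPM in the controls and 479, 558 and 467 CPM in the libraries labelled KO (log2 fold change 1.27, SE 0.42, adjusted p = 0.0712, edgeR), a difference that did not pass. The 8 Zscan4 members summed to 218 ± 112 CPM and 348 ± 98.7 CPM, with ranges that overlapped (112 to 335 CPM and 258 to 454 CPM). Zscan4d measured 125, 43.9 and 72.5 CPM in the controls and 132, 124 and 115 CPM in the libraries labelled KO (log2 fold change 0.62, SE 0.37, adjusted p = 0.301, edgeR). Zfp352 measured 456, 337 and 343 CPM and then 659, 509 and 538 CPM, apart but short of the threshold (log2 fold change 0.59, SE 0.28, adjusted p = 0.199, edgeR). The Usp17-like pair summed to 24.5 ± 5.54 CPM and 51.9 ± 12.1 CPM. The lowest log2 fold change of the 100 was that of the pseudogene Gm5580, with 1.65, 4.52 and 6.87 CPM in the controls and 0.137, 0.439 and 1.03 CPM in the libraries labelled KO (log2 fold change -3.00, SE 0.96, adjusted p = 0.062, edgeR).

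The counts by role stand beside 1.82% of all genes that rose. Of the 100 members, 8 rose and 88 had a log2 fold change above 0 (median 0.72). Whether any role differs from the 100 was not tested. By role, 3 of 11 trafficking and cytoskeleton genes rose (Scel, Mtmr2 and Ap3s1), and all 11 had a log2 fold change above 0 (median 0.45). The others of this group were Rab14, a GTPase of endosome traffic, and Dennd6a, Smap2, Ehbp1, Mpp5, Capza1, Pfn4 and Sorbs2. Of 9 genes of ligands and signalling 1 rose (Lef1), with a median of 0.95. This group also held the growth factors Fgf10 and Fgf7, the cytokine Tslp (1.5 as a log2 fold change), the BMP effector Smad1 (-0.17), Bmp2k, Tshz2, Paqr3 and Ly6e. Of 7 RNA handling genes 1 rose (Pnrc1), and all 7 were above 0: the others were the poly(A) polymerase Papd4, Paip1, Rexo2, Rbpms2, 2700060E02Rik and the nuclear pore protein Nup153. Paip1, a partner of the poly(A)-binding protein, measured 386, 262 and 665 CPM in the controls and 2046, 1589 and 1254 CPM in the libraries labelled KO. Its groups were apart, yet it missed the threshold (log2 fold change 1.90, SE 0.62, adjusted p = 0.0652, edgeR). Of 6 genes of metabolism and mitochondria 1 rose (Pdk3), with a median of 1.15, the others being Idi1, Cyp2r1, Bmt2, Immp1l and Duoxa2. Of 3 PRAME-like genes 1 rose (Gm10436), and Oog1 (0.92) and Gm2042 (0.83) did not pass. For all 3 the libraries labelled KO lay wholly above the controls, as they did for 36 of the 100 members and 15.5% of all genes.

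In the group of cell cycle, centriole and cilium genes (Plk4, Cks1b, Cul4b, Alms1, Ttc30b, Dnah7b, Dnah7c, Daw1 and Tsga10) 3 of 9 were higher at an unadjusted p below 0.05 without passing (10.1% of all genes), and the median was 0.40. The chromatin and transcription genes Nsd1, a histone methyltransferase, Hist2h3c1, a histone, Scai and Tiparp had a median of 0.30. Tiparp measured 1108, 808 and 751 CPM in the controls and 1309, 816 and 865 CPM in the libraries labelled KO, which overlapped (log2 fold change 0.17, SE 0.33, adjusted p = 0.788, edgeR), and Tcl1b2 had a log2 fold change of 0.03. The zinc finger genes Zfp352, Zfp51, Zfp329 and Zfp946 ran from -0.36 (Zfp51) to 1.22 (Zfp946). The remaining oocyte-held genes were Gm33973, Slco5a1, Tmem132c, Hecw1, C530044C16Rik, Gm26883, Tmem14a, Xlr4c, Speer4b and Gm15446, with log2 fold changes from 0.18 (Tmem14a) to 1.74 (C530044C16Rik).

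**Figure D5:**
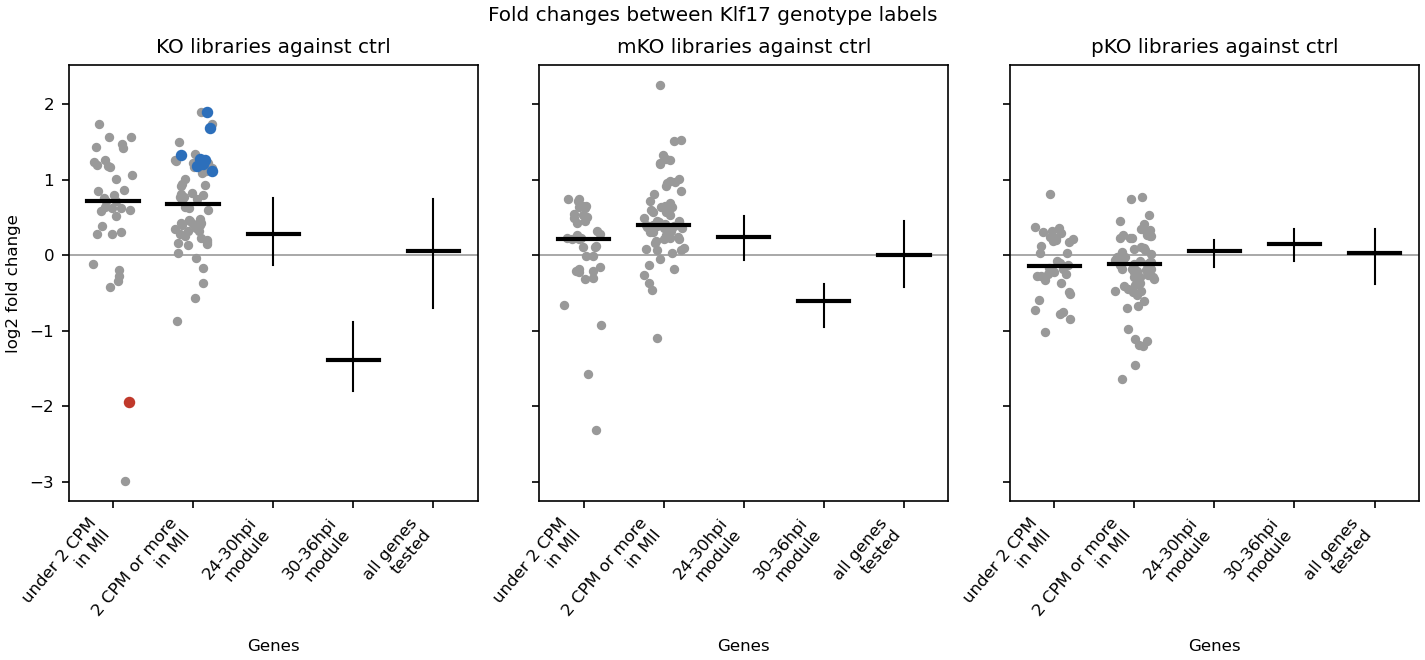
Log2 fold change against the controls in the libraries labelled KO, mKO and pKO for the oocyte-low and oocyte-held members (points, coloured where the adjusted p was below 0.05, with bars at the medians) beside medians and quartiles for the genes of the next windows and all 16694 genes. In the KO panel the members' medians are 0.72 and 0.68, that of the 30-36hpi genes is -1.39, and that of all genes is 0.05.

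Genes of later windows gave other values. The same ranking gave 100 genes for 24-30hpi and 100 for 30-36hpi, which shared no gene with the 100 of 18-24hpi. Between the libraries labelled KO and the controls, 1.82% of all genes rose and 6.31% fell. Of the 24-30hpi genes 6 rose and 1 fell (median log2 fold change 0.27), and of the 30-36hpi genes 1 rose and 46 fell (median -1.39). The difference between these groups of genes was not tested. In a list of genes of the 2-cell embryo, 33 were tested, 7 of them among the 100. Of these 33, 3 fell, none of the 3 among the 100: Sp110, a nuclear body protein, at 323, 231 and 323 CPM and then 97.3, 79.0 and 93.3 CPM, the homeobox gene Obox6 (log2 fold change -1.61) and Ubtfl1 (-1.25). Of 17 tested genes of the KLF and SP family, Klf6 and Klf10 rose (log2 fold change 1.88 and 1.49) and Klf9 fell (-1.23). In the retinoic acid pathway 3 of 25 rose, among stress and p53 genes 1 of 24 rose, and among regulators of G1 and S phase 1 of 21 rose and 2 fell. The lists are short, and whether their counts differ from the shares over all genes was not tested.

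In mKO against the controls no gene passed, among the 100 or in all (edgeR, 0% of 16694 genes, smallest adjusted p of the 100 0.616). At an unadjusted p below 0.05, 12 of the 100 were higher and 3 lower, against 7.45% of all genes in either direction. The mKO libraries lay wholly above the controls for 7 of the 100 and wholly below for 3, where all genes gave 5.5% and 7.97%. The median log2 fold change of the 100 was 0.36, and 0.14 without mKO replicate 1. Their summed level was 21846, 10645 and 12390 CPM in mKO and 12848, 9114 and 9920 CPM in the controls, so mKO replicate 1 stood above the other mKO libraries and the controls. Gm11487 was at 3.87, 3.33 and 5.39 CPM in mKO, under every control (log2 fold change -2.32, SE 0.55, adjusted p = 0.616, edgeR). DESeq2's Wald test called 1 of the 100 there, as lower, and 17 genes higher and 15 lower in all. Without mKO replicate 2, edgeR called 9 genes higher and over 100 lower in all, and 0 of the 100.

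In pKO against the controls no gene passed either (edgeR, 0% of 16694 genes, and DESeq2 called 0 of the 100). Of the 100, 2 had an unadjusted p below 0.05, both lower, against 2.85% of all genes. The 2 pKO libraries lay above all controls for 3 of the 100 and below them for 10, where all genes gave 9.43% and 10.3%. The median log2 fold change was -0.12. The summed level was 11076 and 8068 CPM, one inside and one under the range of the controls.

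The libraries labelled KO were also set against mKO, and no gene passed (edgeR, 0%). At an unadjusted p below 0.05, 9 of the 100 were higher and 4 lower in the libraries labelled KO, against 13.3% of all genes in either direction, and the median log2 fold change was 0.37. DESeq2 called 1 of the 100, as lower, and over all 16694 genes 106 higher and 230 lower. Without mKO replicate 1 edgeR called 7 of the 100, 6 higher and 1 lower, with a median of 0.71. Of all 16506 genes in that fit, 258 were higher and 786 lower. In mKO against pKO no gene passed (edgeR, 0%, and DESeq2 called 0 of the 100). There 19 of the 100 were higher and 1 lower in mKO at an unadjusted p below 0.05, against 11.5% of all genes. The median was 0.51, or 0.66 with library totals not scaled by TMM, which moved the median of all genes from 0.02 to 0.16. Without mKO replicate 2 edgeR called 4 of the 100, as higher, and of all 16554 genes 75 higher and 408 lower.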

How the data were processed

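The libraries are SLAM-seq of mouse oocytes and embryos. Per the file headers, the authors deposited read counts per gene, 1 column per library. The authors deposited 90-96hpi replicate 3 with 1 value that is not whole, in a damaged record that was left out here, so this column was read as estimated counts and rounded. The submitters' processing notes list STAR 2.7.10a, Trim Galore 0.6.10 and the build mm10. The counting tool, strand setting and any split by conversion are not given in the sources used here. Libraries of other embryo numbers and of chromatin accessibility were not used.

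All 11 genotype libraries were fitted together with edgeR 4.0.16 in R 4.3.3: filterByExpr (minimum count 10, minimum total 15), TMM, robust two-sided quasi-likelihood F-test, Benjamini-Hochberg adjustment over 16694 genes, calls at an adjusted p below 0.05. The SE is the size of the log2 fold change over the square root of F. As no label names separate collections, p-values measure only the spread between these libraries, which may be technical. The 100 genes and all lists were chosen with earlier results of these data known. Values per library are given for the 12 highest scores with an ordinary symbol, the 3 highest levels, up to 6 called genes per direction, list members and Klf17. Others were chosen after their values were seen. Alternatives were DESeq2 1.42.0, its size factors, unscaled totals, all genes kept, a replicate block, dropping single libraries, a floor of 1 on the log2 fold change and fits of 2 groups. On simulated data for KO against ctrl (16211 genes), edgeR called 3% of genes changed 2-fold and 36% of those changed 4-fold, so smaller changes were mostly below what these libraries can show.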

Additional observations from a re-analysis of the deposited data

How the results depend on the processing

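Between the libraries labelled KO and the controls, edgeR called 9 of the 100. DESeq2's Wald test called 30, a fit with all genes kept 29, and a fit of the 2 groups alone 36. With DESeq2 size factors 12 were called, with unscaled totals 11, and with a minimum log2 fold change of 1, 9. Leaving out 1 library gave 0 to 9, and without KO replicate 2 no gene at all was called. With the mitochondrial share as a covariate 0 were called, and without mitochondrial genes 9, both added after the data were seen. As the share did not overlap between these groups, share and label cannot be told apart. All 9 calls were shared with DESeq2, its size factors, all genes kept, the replicate block and 2 groups alone, and 8 with unscaled totals. Over all genes, DESeq2 called 1066 higher and 1526 lower, against 304 and 1054 in edgeR. With all genes kept, 739 were higher and 1498 lower of 22463, and with 2 groups alone 1182 and 1984 of 14754. DESeq2 size factors gave 361 and 795, and unscaled totals 317 and 918.

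No label says whether the replicate numbers pair the libraries. Deviations of same-numbered libraries correlated at -0.05 to 0.32, over 0.1 in 6 of 15 pairs. Those of differently numbered libraries correlated at -0.32 to 0.15. These values do not settle whether libraries with the same number belong together. With the replicate block, 27 of the 100 were called in KO against control and 0 in each of the other 4 comparisons. Over all genes this block gave 578 higher and 1486 lower in KO against control.

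In mKO against control, DESeq2 called 1 and the fit with all genes kept 4, with 0 for each library left out. In KO against mKO these were 1 and 3, with 0 to 7 for 1 library left out. In mKO against pKO the fit with all genes kept called 5, with 0 to 4 for 1 library left out. In pKO against control each alternative gave 0. Leaving out 1 pKO library assumes that the lone one varies like the other groups. The cause of these changes was not tested.

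With TMM-scaled totals in the windows, 55 of the 100 were chosen again, all 36 oocyte-low genes among them. A pseudocount of 5 kept 97, a minimum of 10 or 40 CPM kept 76 and 73, and leaving out 1 of the 18-24hpi libraries kept 80 to 86.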
